A study of Mus musculus with 18 samples.

Results

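The proteasome genes described here are the Psm genes of the count table: the subunits of the core particle (Psma and Psmb), the ATPases and other subunits of the regulatory particle (Psmc and Psmd), the activators (Psme), the assembly chaperones (Psmg) and the inhibitor Psmf1. Their symbols match 48 of the 45706 rows, and 46 of these had 10 or more counts in 6 or more libraries. The 46 comprise 7 alpha-ring genes, 7 constitutive beta-ring genes, 3 immunoproteasome genes (Psmb8, Psmb9, Psmb10), 6 base ATPases, 3 other base subunits, 8 lid subunits, 3 chaperones of regulatory particle assembly, 4 chaperones of core assembly, 4 activators and 1 inhibitor. The 2 rows not kept were Psma8, an alpha subunit of male germ cells, and Psmb11, a beta subunit of the thymic cortex. Psma8 was listed at 0 in all 18 libraries. CPM is a gene's counts scaled to library size. By library totals before scaling, a count of 0 allows up to 0.113 to 0.428 CPM depending on the library. All other CPM here use scaled sizes, on which the limit is higher in 24 h replicate 5 (scaling factor 0.430). Psmb11 had between 0 and 6 expected counts per library.

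The cells were BMC, mouse brown preadipocytes made immortal and kept as a line, turned into brown adipocytes with insulin, triiodothyronine, dexamethasone, indomethacin and isobutylmethylxanthine, and used on day 7. By their labels, 6 libraries were not induced (0 h) and 6 each were taken 4 h and 24 h after 1 µM norepinephrine, the sympathetic transmitter that starts lipolysis in these cells. Titles number the libraries 1 to 6 at each time, all carry batch label 1, and no label ties a number to a culture, plate or day, so p-values measure only how far these libraries spread, and that spread may be technical. BMC is 1 cell line, and a line grown alone holds neither the nerves nor the immune cells of brown fat.

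The proteasome degrades proteins that carry ubiquitin chains. Its core particle is a stack of 2 outer alpha rings and 2 inner beta rings, and in the beta rings Psmb5, Psmb6 and Psmb7 carry the chymotrypsin-like, caspase-like and trypsin-like sites. Interferon and some other signals replace these by Psmb8, Psmb9 and Psmb10, which form the immunoproteasome and favour peptides for antigen presentation. The regulatory particle binds and unfolds substrates with the ring of Psmc ATPases in its base, and its lid cuts off the ubiquitin. In brown fat, proteasome activity is known to be kept up by the transcription factor Nfe2l1, which raises proteasome genes when activity falls, and this adaptation is linked to heat production in the cold.

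Expected counts totalled 7010742 to 26501223 per library, and the 46 genes together held 2329 to 2535 CPM. The library labelled 24 h replicate 5 stood apart: Yam1 and Gm26917 took 41.5% of its counts, against 6.78% to 10.6% in the other 17, and its total was the lowest. Its smallest proteasome count was 15. The replicate numbers, more than the labelled times, separated the libraries. Grouped 3 apart into the sets 1+4, 2+5 and 3+6 (6 libraries each, 2 numbers at 3 times), the numbers accounted for 62.7% of the variance of the median gene over the 18 libraries and the labelled times for 3.78%. For the proteasome genes the medians were 46.3% and 5.18%. These sets were formed with correlations of these data known, so their p-values describe these libraries and support no label. Brown adipocyte markers summed to 3651 to 4718 CPM over the 18 libraries. Ucp1, a defining brown marker, had 1.08 to 2.65 CPM in set 3+6, 12.8 to 18.03 in set 1+4 and 9.35 to 10.9 in set 2+5. The other markers did not all follow it. Of the 12 listed, 4 were higher and 5 lower in 3+6 against 1+4 at an adjusted p under 0.05 (edgeR). In 3+6 against 2+5, 7 were higher and 3 lower. Of all genes, 59.7% and 57.1% passed in these comparisons. Leukocyte markers summed to 2.78 to 4.23 CPM, 7 of the 8 fell below the filter on low counts and Ptprc lay between 0 and 0.0454 CPM. Endothelial markers summed to 0.332 to 1.48 CPM.

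Proteasome genes were expressed well above the median gene and varied little. Their median level was 5.78 log2 CPM, against 4.07 for the 14788 genes tested. The median SD over the 18 libraries was 0.119 log2 CPM for the 46 genes and 0.237 for all genes, and 44 of the 46 had an SD under the median of all genes. Counts per kilobase of the main transcript, which allow genes to be set side by side, were highest in the beta ring. Psmb6 led with 98.3 ± 6.53 CPM per kb (SD, n = 18), followed by Psmb4 with 72.8 ± 2.95 and the lid subunit Psmd3 with 72.4 ± 4.57. By group, the median gene had 64.1 CPM per kb in the constitutive beta ring, 49.9 in the alpha ring, 46.0 among the other base subunits, 35.2 among the activators, 29.7 in the lid and 24.5 among the base ATPases.

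Immune catalytic subunits were a minor share of the transcripts. Psmb8 had 7.27 ± 1.56 CPM per kb, against 42.6 ± 5.99 for its constitutive counterpart Psmb5. Psmb9 had 6.58 ± 0.891 against 98.3 ± 6.53 for Psmb6. Psmb10 had 11.4 ± 1.48 against 72.4 ± 7.03 for Psmb7. In each pair the highest library of the immune subunit lay below the lowest of the constitutive one. Chaperones of core assembly, which help the rings form and then leave, had a median of 12.2 CPM per kb, those of regulatory particle assembly 6.35, and Psmf1, which binds the core and inhibits it in vitro, 4.58 ± 0.247, the lowest of the 46.

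The promoter windows of 5 genes on which the results turn are given here as examples from the core, the immunoproteasome, the lid and the activators, each a gene that passed in 2 or 3 of the comparisons between number sets described further on. They are Psma1 and Psmb5 of the core, the immune subunit Psmb8, the lid subunit Psmd11 and the activator Psme4, taken from RefSeq on GRCm38.p6, 250 bases before to 50 after the start of transcription, 5′ to 3′. Capitals mark the CCAAT letters of an NF-Y box in Psma1 (chr7:114276067-114276366, minus strand). In Psmb5 (chr14:54617946-54618245, minus strand) they mark TGANNNNGC, a looser form of the antioxidant response element core. In Psmb8 (chr17:34197945-34198244, plus strand) they mark the STAT site TTCNNNGAA. The ETS site CCGGAAG is marked in Psmd11 (chr11:80428365-80428664, plus strand) and Psme4 (chr11:30771525-30771824, plus strand). Each was sought on either strand. In GENCODE M21 Psmb8 starts earlier, at 34197721, so its whole window and the marked site lie inside that gene span.
Psma1: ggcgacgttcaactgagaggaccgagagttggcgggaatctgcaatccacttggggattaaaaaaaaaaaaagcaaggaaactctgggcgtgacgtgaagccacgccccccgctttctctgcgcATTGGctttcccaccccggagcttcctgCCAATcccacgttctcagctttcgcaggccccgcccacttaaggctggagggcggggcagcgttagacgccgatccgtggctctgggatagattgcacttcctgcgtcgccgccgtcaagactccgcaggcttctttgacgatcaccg
Psmb5: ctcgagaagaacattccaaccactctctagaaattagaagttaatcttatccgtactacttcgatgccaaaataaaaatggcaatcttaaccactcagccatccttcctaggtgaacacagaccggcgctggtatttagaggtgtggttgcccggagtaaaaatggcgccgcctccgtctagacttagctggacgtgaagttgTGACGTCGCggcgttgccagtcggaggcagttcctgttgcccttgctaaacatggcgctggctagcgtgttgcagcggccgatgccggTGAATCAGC
Psmb8: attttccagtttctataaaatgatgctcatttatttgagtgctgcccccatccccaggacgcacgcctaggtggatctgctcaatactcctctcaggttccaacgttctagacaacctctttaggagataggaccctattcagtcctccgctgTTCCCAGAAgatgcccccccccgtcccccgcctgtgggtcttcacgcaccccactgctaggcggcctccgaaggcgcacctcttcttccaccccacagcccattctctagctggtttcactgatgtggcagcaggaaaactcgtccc
Psmd11: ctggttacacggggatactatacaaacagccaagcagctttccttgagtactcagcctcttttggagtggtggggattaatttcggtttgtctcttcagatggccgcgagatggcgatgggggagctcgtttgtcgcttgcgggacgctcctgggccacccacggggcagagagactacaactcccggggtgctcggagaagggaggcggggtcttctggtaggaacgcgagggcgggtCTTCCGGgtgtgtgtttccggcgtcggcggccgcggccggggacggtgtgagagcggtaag
Psme4: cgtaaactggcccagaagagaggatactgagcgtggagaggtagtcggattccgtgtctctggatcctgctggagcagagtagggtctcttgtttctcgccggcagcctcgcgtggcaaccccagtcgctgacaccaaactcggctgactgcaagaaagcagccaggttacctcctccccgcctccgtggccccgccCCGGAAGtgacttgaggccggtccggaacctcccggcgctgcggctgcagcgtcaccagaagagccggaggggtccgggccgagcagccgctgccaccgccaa

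RefSeq promoter windows outside chromosome 18 were used, and 39 of the 46 genes had one. Psmg2 lies on chromosome 18 and was left out for that reason. Each motif was counted by gene, in these and in all 27025 genes with such a window. The ETS letters stood in 14 of the 39 (35.9%), against 9.93% of the 27025. The pattern TGANNNNGC stood in 22 (56.4%), against 45.0%. It is a looser form of the antioxidant response element core, which Nfe2l1 and Nfe2l2 are known to bind with small Maf proteins. A match need not be that element. The pattern has 4 free positions, so it occurs often by its letters alone. CCAAT stood in 33.3% against 41.1%, the interferon-stimulated half-repeat GAAANNGAA in 17.9% against 9.76%, and the STAT site in 7.69% against 9.55%. A match describes the letters and shows no binding.

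The first comparison asks which transcripts differ at each time after lipolysis is induced. No proteasome gene passed the test between labelled times (0 of 46 at 4 h against 0 h, at 24 h against 0 h and at 24 h against 4 h, edgeR with Benjamini-Hochberg adjustment over all 14788 genes, where 0% passed in each). DESeq2 and limma-voom called 0 as well. At an unadjusted p under 0.05, edgeR had 0, 1 and 0 of the 46, with 1.17%, 1.07% and 0.926% of all genes. Groups without overlap were found for 0 of the 46 genes at each pair of times, and for 0.0676% of all genes at 4 h against 0 h, 0.0406% at 24 h against 0 h and 0% at 24 h against 4 h. When the replicate number entered as a block, the count was again 0 in all 3, and 1 of all genes (0.00676%) passed at 24 h against 0 h. At an unadjusted p under 0.05 the blocked fit had 2 of the 46 at 4 h against 0 h (Psmb10 and Psmd7), 3 at 24 h against 0 h (Psma4, Psmb9 and Psmb10) and 1 at 24 h against 4 h (Psma5), with 9.88%, 7.81% and 5.12% of all genes.

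Differences between labelled times were small in each part of the particle. At 4 h against 0 h 35 of the 46 log2 fold changes were above 0, with a median of 0.04 against 0.01 for all genes, and at 24 h 28 were above 0, with a median of 0.01. Members ran from -0.07 to 0.16 at 4 h and from -0.10 to 0.25 at 24 h. All 7 alpha-ring genes were above 0 at 4 h (median 0.05) and 5 of 7 at 24 h. In the constitutive beta ring 4 of 7 were above 0 at 4 h and 3 of 7 at 24 h. All 6 base ATPases lay between 0.01 and 0.05 at 4 h. None of these values passed. The 4 chaperones of core assembly were all below 0 at 24 h, between -0.10 and -0.04.

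The 3 immunoproteasome genes had the highest values of the 46 at 24 h. Psmb10 had 12.6, 13.2 and 15.6 CPM as its lowest, median and highest library at 0 h, 13.6, 15.2 and 16.2 at 4 h, and 13.2, 16.2 and 19.6 at 24 h. Its ranges overlapped at every pair of times. Within each of the 6 replicate numbers, however, the library labelled 4 h and the one labelled 24 h were above that labelled 0 h. Libraries that share a number are not known to be matched, here or in the counts by number below. The log2 fold change of Psmb10 at 24 h was 0.25 (SE 0.09, adjusted p = 1.00) and 0.21 with the block (95% interval 0.08 to 0.34, adjusted p = 0.311). At 4 h it was 0.14 with the block (0.01 to 0.27, adjusted p = 0.468).

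Psmb9 had medians of 8.51, 9.04 and 9.83 CPM at 0 h, 4 h and 24 h, with ranges of 6.87 to 9.73, 7.06 to 10.2 and 8.47 to 10.6. It was above 0 h in 6 of 6 numbers at 4 h and 5 of 6 at 24 h, where its log2 fold change was 0.21 (SE 0.11) and 0.19 with the block (0.03 to 0.35, adjusted p = 0.557). Psmb8 had medians of 10.1, 11.2 and 12.6 CPM, and was above 0 h in 3 of 6 numbers at 4 h and 5 of 6 at 24 h, with 0.23 (SE 0.16) and 0.17 with the block (-0.01 to 0.36, adjusted p = 0.657). None of the 3 passed. Without the library 24 h replicate 5, which had the highest Psmb8 and Psmb10 of the 24 h group, the values at 24 h were 0.17 for Psmb8, 0.20 for Psmb9 and 0.20 for Psmb10. At 24 h against 0 h within single number sets, Psmb9 had -0.00 in 1+4, 0.47 in 2+5 and 0.16 in 3+6, and Psmb10 had 0.10, 0.26 and 0.25.

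**Figure D1:**
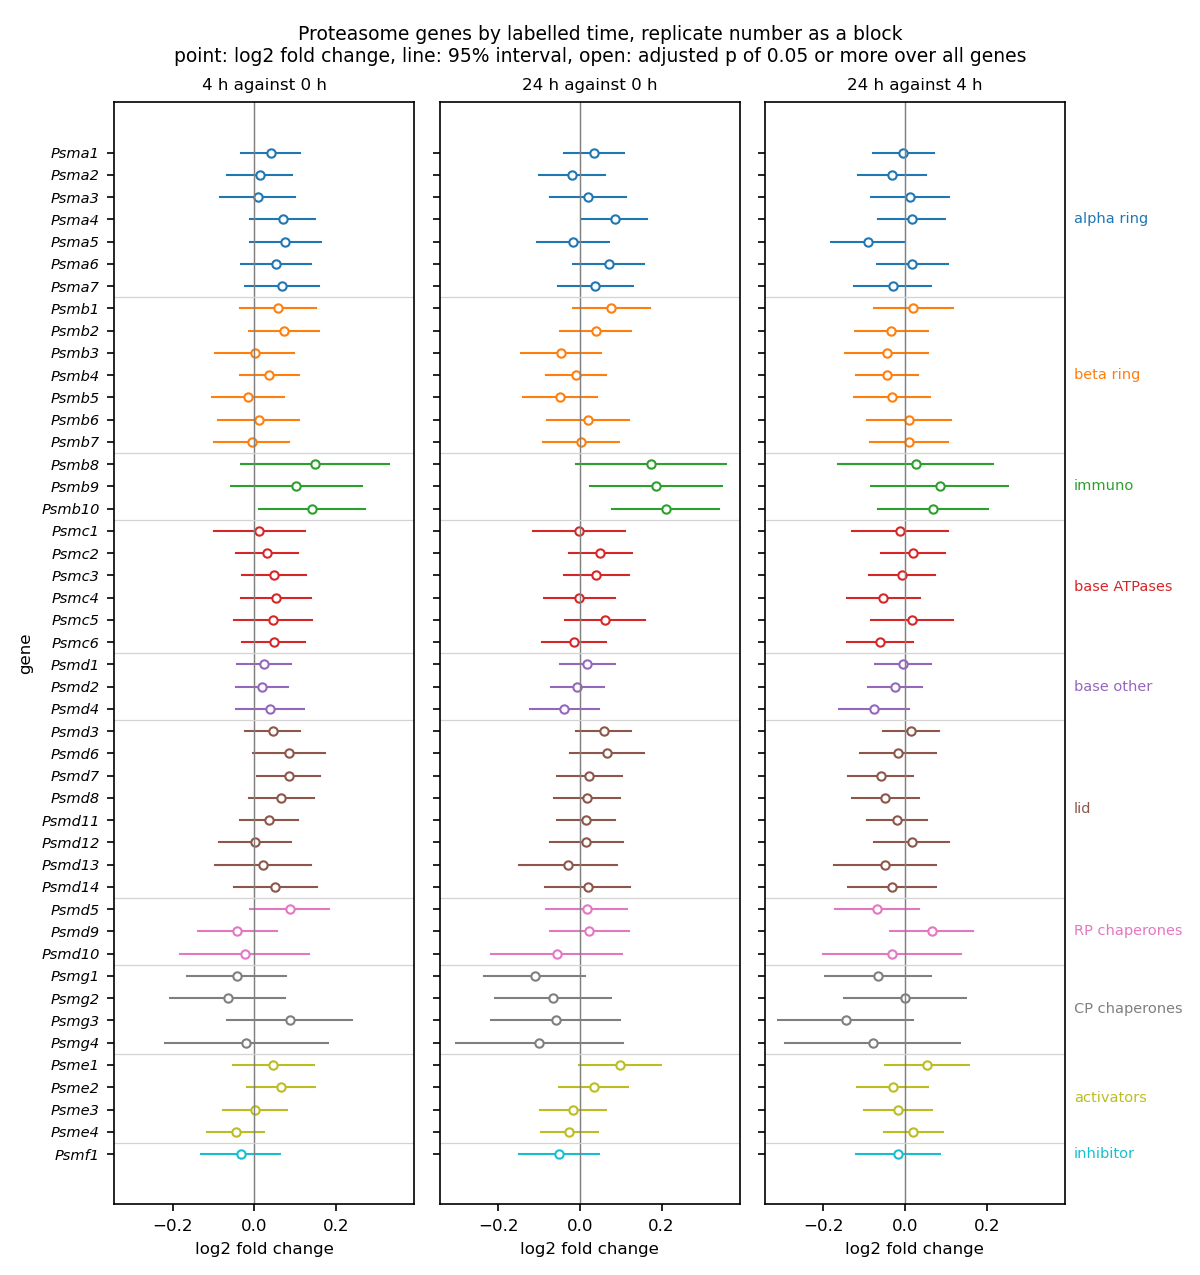
Log2 fold change of the 46 proteasome genes between labelled times in the model with the replicate number as a block. Points are fitted values, lines are 95% intervals, colours are the parts of the particle, and all points are open because no adjusted p was under 0.05; Psmb8, Psmb9 and Psmb10 lie farthest to the right at 24 h against 0 h, at 0.17, 0.19 and 0.21.

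Genes that act beside the immunoproteasome were measured at the same times. All 17 measured genes of an antigen presentation and interferon list were above 0 at 4 h (median 0.14) and at 24 h (median 0.26), and none of the 17 passed. Tap1, which carries peptides into the endoplasmic reticulum and lies head to head with Psmb9, had 46.7 ± 3.33 CPM (SD, n = 6) in the uninduced libraries, 51.8 ± 5.27 at 4 h and 59.0 ± 7.34 at 24 h, with a blocked log2 fold change of 0.30 at 24 h (SE 0.06, adjusted p = 0.111). B2m, the light chain of class I molecules, had 0.28 (SE 0.06, adjusted p = 0.190). Both comparisons share the 0 h libraries. Among preadipocyte and fibroblast markers, 7 of 8 measured members were above 0 at 4 h (median 0.12) and 8 of 8 at 24 h (median 0.12, up to 0.58), none of which passed. Their sums ran from 828 to 1623 CPM at 0 h, 898 to 1984 at 4 h and 875 to 1600 at 24 h, and their part in the values of the immunoproteasome and of this list was not tested. Psmb9 (34181987 to 34187764) and Tap1 (34187553 to 34197225) overlap on opposite strands only at the ends where they meet. With the counting strand not given in the sources used here, reads from that shared stretch cannot be told apart. Expected counts of Psmb9 were not whole in 0% of libraries.

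Activators and the inhibitor were near 0 between times. Psme1 and Psme2, which form the ring of the interferon-inducible activator PA28, had log2 fold changes of 0.11 (SE 0.06) and 0.04 (SE 0.10) at 24 h, and the nuclear activator Psme3 had 0.00 (SE 0.08). Psme4, or PA200, had -0.03 (SE 0.09). Psmf1 was lower at 24 h than at 0 h in 6 of 6 numbers, with log2 differences from -0.13 to -0.0024, and its fitted value was -0.06 (SE 0.06).

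Between replicate-number sets, proteasome genes differed in both directions and by small amounts. In 2+5 against 1+4, 19 of the 46 passed, 10 higher and 9 lower, where 59.5% of all genes passed (29.6% higher, 29.9% lower). In 3+6 against 1+4, 26 passed, 13 in each direction, where 59.7% of all genes passed (30.2% higher, 29.5% lower). In 3+6 against 2+5, 22 passed, 10 higher and 12 lower, where 57.1% of all genes passed (28.6% higher, 28.5% lower). The proteasome shares of 41.3% in 2+5 against 1+4 and 47.8% in 3+6 against 2+5 were below those of all genes. The share of 56.5% in 3+6 against 1+4 was near the 59.7% of all genes. Groups did not overlap for 9, 17 and 6 genes (19.6%, 37.0% and 13.04%), against 35.3%, 38.6% and 29.8% of all genes. The median absolute log2 fold change was 0.09, 0.12 and 0.10, against 0.24, 0.24 and 0.23 for all genes.

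Differences past a log2 of 0.25 were found in 3, 7 and 6 genes, and 1 gene, Psma1, passed 0.50. Of the genes that passed, 18 of 19, 26 of 26 and 20 of 22 had the same sign within 0 h, 4 h and 24 h. Psmb9 was the exception in the first comparison and Psma6 and Psmb3 in the third. These genes were chosen on the same libraries pooled over the times, so this agreement was largely fixed in advance and adds no support. Directions here are relative to all genes after scaling by trimmed mean of M values (TMM). With library totals in its place, all genes shifted by a median log2 of -0.09, 0.17 and 0.25, and 0, 3 and 9 proteasome genes passed, all of them higher. Relative to that shift, the 17, 20 and 16 named genes that had passed kept their sign. Taking the shift away comes close to the TMM scaling itself, so this was nearly fixed in advance and adds no support. Preadipocyte markers moved with the sets, summing to 828 to 964 CPM in 1+4, 1065 to 1535 in 2+5 and 1585 to 1984 in 3+6, with 7, 8 and 7 of 8 measured members called higher. Their part in the results below was not tested, and in bulk RNA fewer cells of a type and less RNA per cell cannot be told apart. No gene of the 46, nor any of all genes, had a time-by-set interaction that passed.

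**Figure D2:**
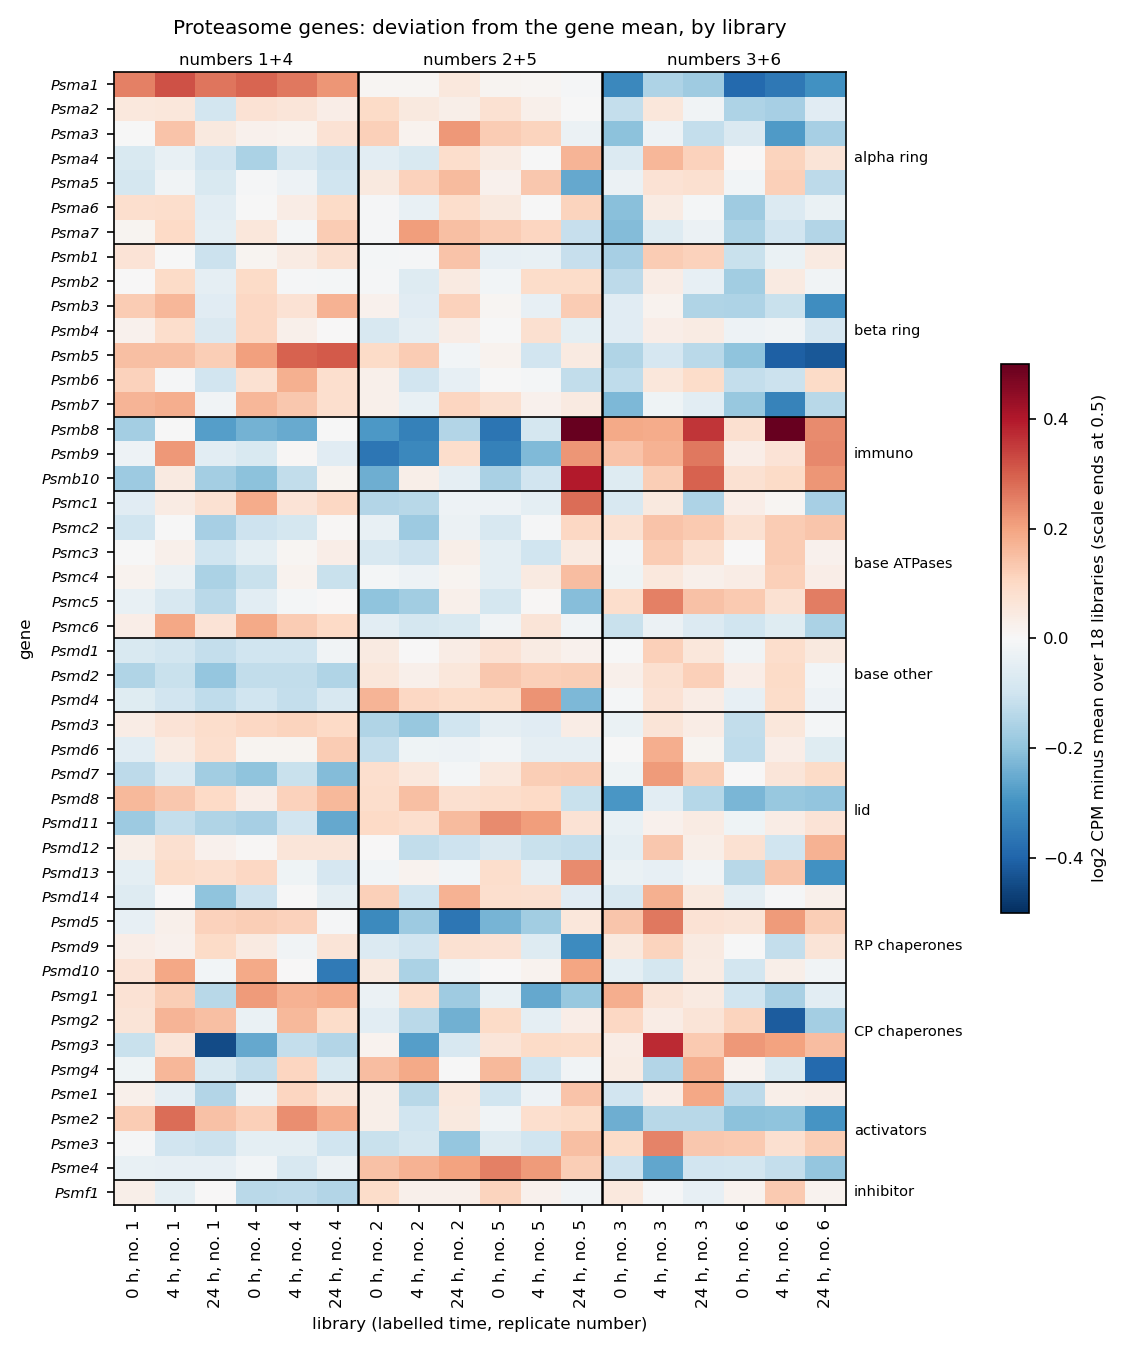
Deviation of each of the 46 genes (rows, in parts of the particle) from its own mean over 18 libraries, in log2 CPM, with libraries (columns) ordered by number set, then number and labelled time. Psma1, Psmb5 and Psme2 step down from set 1+4 to 3+6 and Psmb8 is highest in 3+6; colours end at 0.5 in either direction.

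In the alpha ring, which gates the core, 6 of 7 genes differed between 3+6 and 1+4, 5 lower and 1 higher. Psma1 (chromosome 7, 114264606 to 114276118, minus strand, mm10) showed the largest difference of all 46 genes. It had 68.7, 70.9 and 73.6 CPM as its lowest, median and highest library in 1+4, 58.7, 59.4 and 61.1 in 2+5, and 45.1, 47.4 and 52.9 in 3+6. None of these ranges overlapped, and each holds libraries of all 3 labelled times. Its log2 fold change was -0.25 in 2+5 against 1+4 (SE 0.04, adjusted p = 2.67e-06), -0.55 in 3+6 against 1+4 (SE 0.04, adjusted p = 8.73e-13) and -0.30 in 3+6 against 2+5 (SE 0.04, adjusted p = 2.87e-07), or 31.7% lower between the outer sets.

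Ring partners of Psma1 had smaller differences. Between 3+6 and 1+4, Psma2, Psma3, Psma6 and Psma7 were lower by log2 values of -0.10, -0.19, -0.12 and -0.15, and Psma6 was above 0 with library totals and lost its call in 3 of 18 fits that left out 1 library. Psma4 was higher, at 0.15 (SE 0.04, adjusted p = 0.00104), with 60.3 ± 1.63 CPM in 1+4, 65.6 ± 4.23 in 2+5 and 67.2 ± 3.92 in 3+6 (SD, n = 6). Psma5 passed only in 2+5 against 1+4, at 0.12 (adjusted p = 0.0228), and did not pass when 24 h replicate 2 (0.08, adjusted p = 0.136) or 4 h replicate 4 (0.11, adjusted p = 0.0529) was left out. Expected counts of Psma3, Psma4 and Psma5 were not whole in 83.3% to 88.9% of libraries, a mark of reads shared with other transcripts, so these 3 are uncertain.

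In the constitutive beta ring the differences that passed lay in Psmb3, Psmb5 and Psmb7. All 7 genes were below 0 in both comparisons with 1+4, and 1 and 3 of them passed. Psmb5, the chymotrypsin-like subunit (chromosome 14, 54614119 to 54618022, minus strand), had 41.2, 42.8 and 46.8 CPM as its lowest, median and highest library in 1+4, 35.4, 38.7 and 41.4 in 2+5, and 28.2, 33.5 and 35.8 in 3+6. Its 3+6 libraries all lay below its 1+4 libraries, and set 2+5 overlapped each of the others at the edge. The log2 fold changes were -0.18 (SE 0.06, adjusted p = 0.00844), -0.42 (SE 0.05, adjusted p = 2.26e-07) and, in 3+6 against 2+5, -0.24 (SE 0.06, adjusted p = 0.000702), the last of which was 0.01 with library totals.

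Psmb7, the trypsin-like subunit, had medians of 92.8, 85.6 and 74.6 CPM in 1+4, 2+5 and 3+6. It was lower in 3+6 than in 1+4 by a log2 of -0.27 (SE 0.05, adjusted p = 8.67e-06) and lower than in 2+5 by -0.19 (adjusted p = 0.000865), a value that was 0.07 with library totals. Psmb6, the caspase-like subunit, did not pass in any comparison over the 3 labelled times. Its medians were 82.8, 76.8 and 77.0 CPM and its log2 values -0.09, -0.07 and 0.02. The first (-0.12) and the second (-0.11) passed without 24 h replicate 1. Within single times, Psmb6 in 3+6 against 1+4 had -0.22 at 0 h (edgeR adjusted p = 0.0160), -0.10 at 4 h and 0.11 at 24 h. The 95% intervals of Psmb6 are drawn in the plot of fold changes by set. Over the 3 times, Psmb1 had the smallest differences of the beta ring, at most 0.02 in size, with 74.9 ± 3.41, 73.5 ± 4.42 and 74.0 ± 6.13 CPM. Within 0 h, 4 h and 24 h, its values in 3+6 against 1+4 were -0.18, 0.04 and 0.10. Psmb3 was lower in 3+6 than in both other sets (-0.22 and -0.15), from counts that were not whole in any library.

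**Figure D3:**
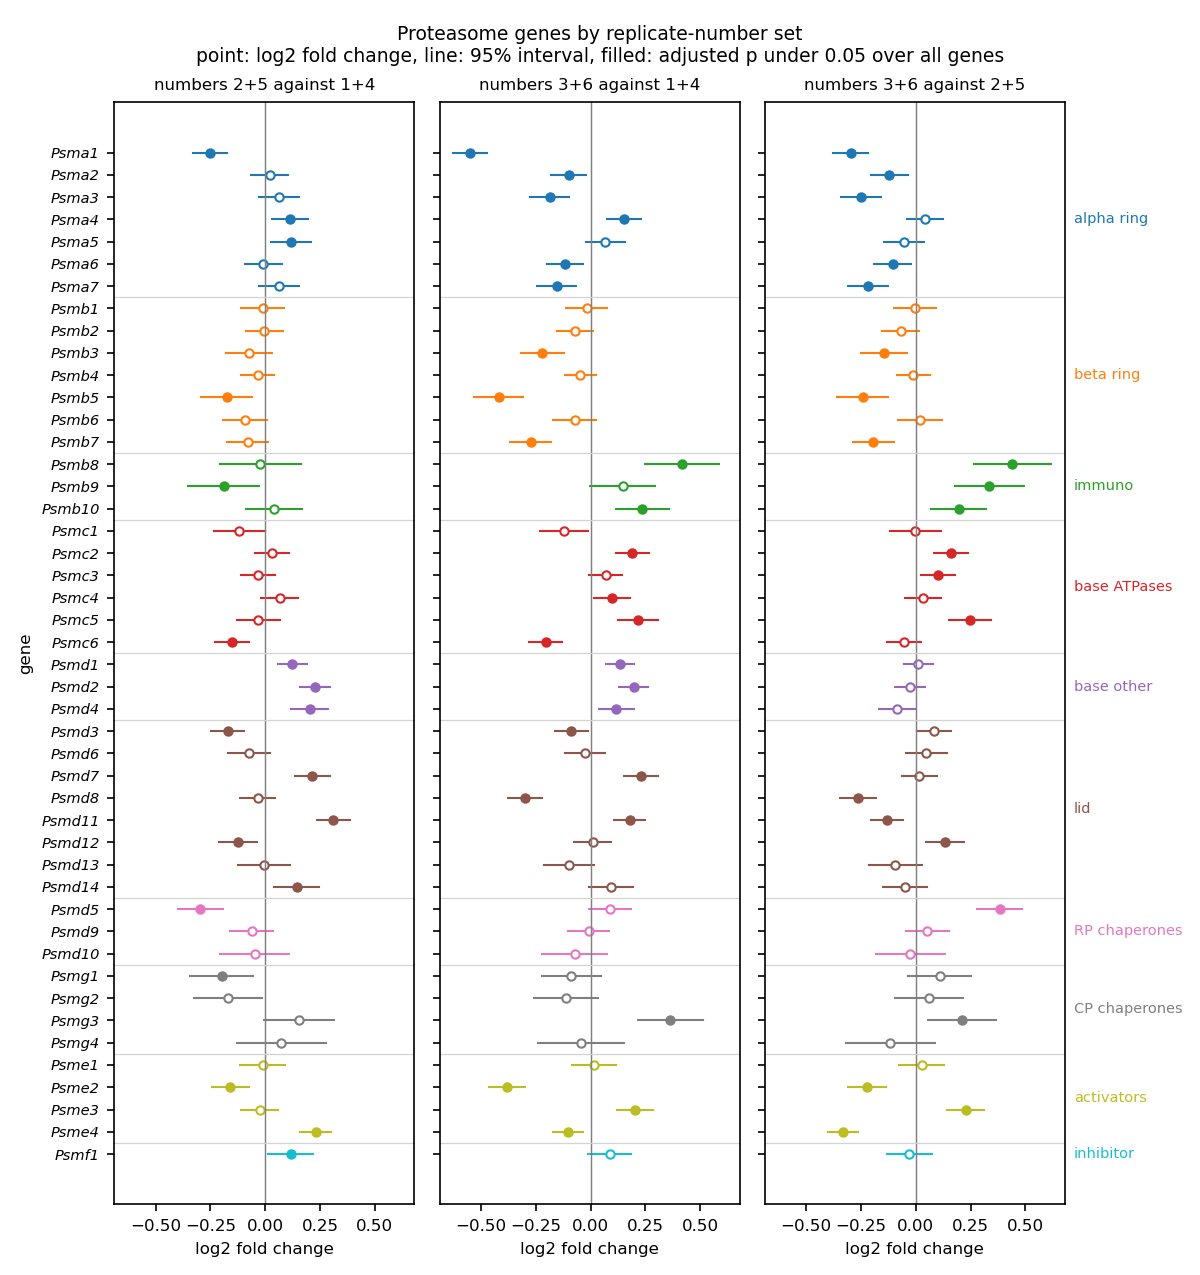
Log2 fold change of the 46 genes between replicate-number sets, with time in the model. Points are fitted values, lines 95% intervals, filled points have an adjusted p under 0.05 over all genes, and colours are the parts of the particle; Psma1 at -0.55 and Psmb8 at 0.42 mark the ends in 3+6 against 1+4.

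In set 3+6, Psmb8 and Psmb10 were higher while Psmb5 and Psmb7, their constitutive counterparts, were lower. Psmb8 (chromosome 17, 34197721 to 34201454, plus strand) had 9.59, 10.1 and 11.6 CPM as its lowest, median and highest library in 1+4, 9.01, 10.0 and 16.6 in 2+5, and 12.3, 13.4 and 17.5 in 3+6. All libraries of 3+6 lay above all of 1+4, and in 2+5 the library 24 h replicate 5 alone reached the range of 3+6. Its log2 fold change was 0.42 in 3+6 against 1+4 (SE 0.08, adjusted p = 7.79e-05) and 0.44 against 2+5 (SE 0.09, adjusted p = 9.09e-05), where it was 0.49 without that library. Between 2+5 and 1+4 it was -0.02 (SE 0.09).

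Psmb10 was higher in 3+6 than in 1+4, at 0.24 (SE 0.06, adjusted p = 0.00113), and than in 2+5, at 0.20 (SE 0.06, adjusted p = 0.00835), with 13.9 ± 1.04, 14.8 ± 2.497 and 16.2 ± 1.40 CPM in the 3 sets. Psmb9 was higher in 3+6 than in 2+5, at 0.34 (SE 0.08, adjusted p = 0.000566), and had 0.15 (SE 0.07, adjusted p = 0.0862) against 1+4. Its median levels were 8.58, 7.31 and 9.83 CPM. In 2+5 against 1+4 Psmb9 passed as lower, at -0.19 (adjusted p = 0.0405), a call lost in 14 of 18 fits that left out 1 library (adjusted p up to 0.152, without 4 h replicate 1), lost with DESeq2 (0.0520) and with the replicate block (adjusted p = 0.0514), and 0.17 within 24 h.

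As a ratio of counts within each library, not corrected for length, Psmb8 stood at 21.1% to 27.7% of Psmb5 in 1+4 (geometric mean 24.0%), 22.4% to 42.5% in 2+5 (geometric mean 27.8%) and 37.1% to 61.6% in 3+6 (geometric mean 43.7%). The highest value was that of 4 h replicate 6, and 24 h replicate 5 was the only library of 2+5 inside the range of 3+6. Psmb10 stood at 13.9% to 17.04% of Psmb7 in 1+4, 14.9% to 22.8% in 2+5 and 19.7% to 24.1% in 3+6. Psmb9 stood at 10.1% to 13.2% of Psmb6 in 1+4, 8.75% to 14.4% in 2+5 and 12.3% to 13.7% in 3+6. By labelled time the ranges of each ratio overlapped, with geometric means for Psmb8 over Psmb5 of 27.8% at 0 h, 31.2% at 4 h and 33.7% at 24 h. Within replicate numbers, Psmb10 over Psmb7 exceeded its 0 h value in 6 of 6 at 24 h, by a log2 of 0.09 to 0.59, and in 5 of 6 at 4 h. Psmb8 over Psmb5 was higher in 5 of 6 at 24 h and 3 of 6 at 4 h, and Psmb9 over Psmb6 in 4 of 6 at both times. These ratios between times were not tested.

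**Figure D4:**
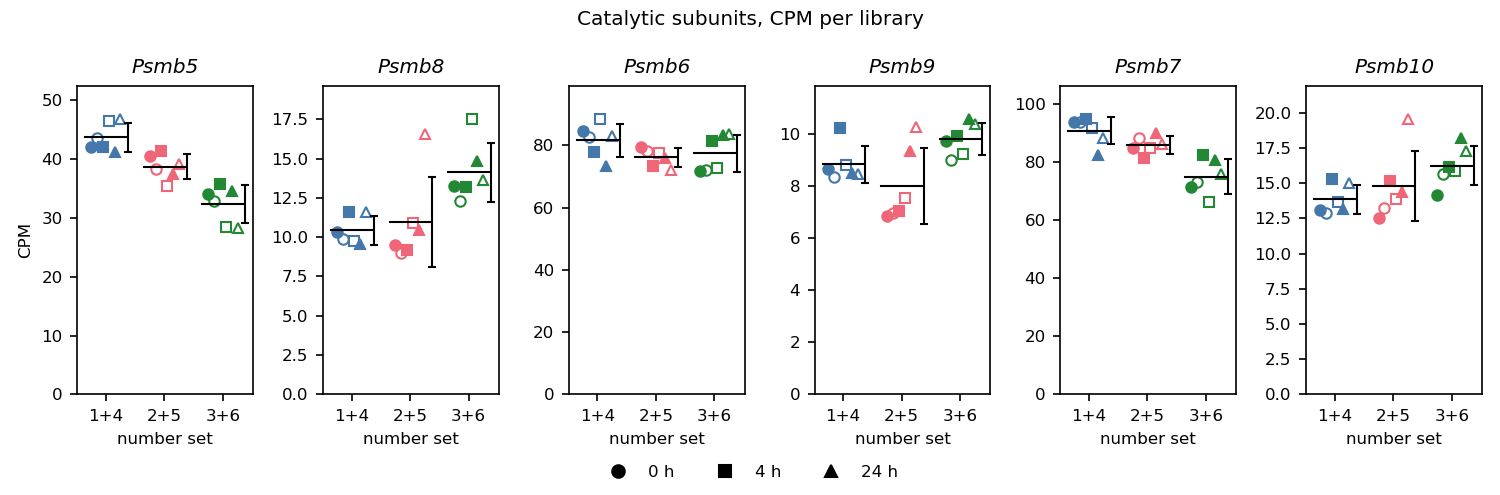
CPM of the 3 constitutive catalytic subunits, each followed by its immune counterpart, in every library by number set. Circles, squares and triangles are 0 h, 4 h and 24 h, filled symbols are numbers 1 to 3 and open symbols 4 to 6, and lines with bars are the mean and SD of 6 libraries; Psmb5 falls from 43.7 to 32.3 CPM from set 1+4 to 3+6 while Psmb8 is at 10.4 and 14.1.

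Genes of antigen presentation moved in both directions across sets. Of the 17 listed genes 8 passed between 2+5 and 1+4, 7 higher and 1 lower, where 59.5% of all genes passed. Between 3+6 and 1+4, 10 passed, 4 higher and 6 lower, where 59.7% of all genes passed, and between 3+6 and 2+5, 9 passed, 3 higher and 6 lower, where 57.1% did. B2m was higher in 3+6 by 0.24 against 1+4 (adjusted p = 0.00107) and 0.22 against 2+5. Tap1 did not pass in any set comparison, with log2 values of -0.14, -0.06 and 0.07.

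In the base, the ring of ATPases was divided. Psmc5 was higher in 3+6 by 0.22 against 1+4 (SE 0.05, adjusted p = 0.000155) and 0.25 against 2+5 (SE 0.05, adjusted p = 5.56e-05), with all of its 3+6 libraries (34.8 to 39.5 CPM) above those of 1+4 (30.1 to 33.1) and of 2+5 (28.5 to 33.7). Psmc6 was lower by -0.15 in 2+5 (adjusted p = 0.00142) and -0.20 in 3+6 (adjusted p = 2.71e-05), each against 1+4. Besides Psmc5, Psmc2 was higher in both comparisons of 3+6, Psmc3 only past the threshold against 2+5 (0.10) and Psmc4 only against 1+4, at 0.10 (adjusted p = 0.0324). The call of Psmc4 was lost with DESeq2 (adjusted p = 0.0554) and in 3 of 18 fits that left out 1 library. Psmc1 did not pass.

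The 3 other base subunits all passed as higher in both comparisons with 1+4. Psmd2, the scaffold at the centre of the base (chromosome 16, 20651652 to 20663414, plus strand), had 119 to 126 CPM in 1+4, 138 to 149 in 2+5 and 135 to 148 in 3+6. Both other sets lay wholly above 1+4 and overlapped each other, with log2 fold changes of 0.23 (SE 0.03, adjusted p = 1.47e-06) and 0.20 (SE 0.03, adjusted p = 7.64e-06) against it. Psmd1, a second scaffold, had 0.12 and 0.13 (adjusted p = 0.00178 and 0.000624), and Psmd4, a ubiquitin receptor, 0.20 and 0.12. Between 3+6 and 2+5 none of the 3 passed, with values between -0.09 and 0.01. Counts of Psmd1 and Psmd2 were not whole in 83.3% of libraries, so reads shared with other transcripts make them uncertain.

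In the lid, which removes ubiquitin, genes moved in both directions. Psmd11 (chromosome 11, 80428615 to 80473248, plus strand) had 72.4, 77.5 and 80.9 CPM as its lowest, median and highest library in 1+4, 90.8, 94.6 and 102 in 2+5, and 84.4, 88.3 and 90.7 in 3+6. The 3 ranges did not overlap, though 2+5 and 3+6 nearly touched. Its log2 fold change of 0.31 in 2+5 against 1+4 (SE 0.04, adjusted p = 2.11e-08) was the largest rise of that comparison. In 3+6 it was 0.18 against 1+4 (SE 0.035, adjusted p = 7.33e-05) and -0.13 against 2+5 (SE 0.04, adjusted p = 0.00216), the last being 0.14 with library totals. Its counts were not whole in 94.4% of libraries.

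Psmd8 was low in 3+6, with 65.2 to 71.4 CPM in 1+4, 59.0 to 70.8 in 2+5 and 52.1 to 61.5 in 3+6. It was lower in 3+6 by -0.30 against 1+4 (SE 0.04, adjusted p = 1.49e-07) and -0.26 against 2+5 (SE 0.04, adjusted p = 2.07e-06), where library totals gave 0.004. Psmd7 was higher than in 1+4 by 0.21 in 2+5 (adjusted p = 3.12e-05) and 0.23 in 3+6 (adjusted p = 6.67e-06). Psmd3 was lower by -0.17 in 2+5 (adjusted p = 0.000283), and its call in 3+6 against 1+4 (-0.09, adjusted p = 0.0421) was lost in 13 of 18 fits that left out 1 library and was 0.08 with library totals. Psmd12 was higher in 3+6 than in 2+5, at 0.13 (adjusted p = 0.00921), and lower in 2+5 than in 1+4, at -0.12 (adjusted p = 0.0152, or 0.0514 without 4 h replicate 1). Psmd14, the subunit that cuts the ubiquitin chain, was higher in 2+5 than in 1+4, at 0.14 (adjusted p = 0.0144). Psmd6 had the smallest differences of the lid, with 27.7 ± 1.21, 26.2 ± 0.695 and 27.2 ± 1.98 CPM in the 3 sets.

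Of the chaperones, Psmd5, which holds back base intermediates until they join, was low in 2+5. It had 26.9 to 30.2 CPM in 1+4, 21.6 to 28.8 in 2+5 and 29.0 to 33.3 in 3+6, with -0.30 in 2+5 against 1+4 (SE 0.05, adjusted p = 1.25e-05) and 0.38 in 3+6 against 2+5 (SE 0.05, adjusted p = 2.25e-07). Only the library 24 h replicate 5 reached the range of 1+4, and without it the values were -0.32 and 0.40. Psmd9 had the smallest differences of this group, at most 0.06 in size. Among the core chaperones Psmg3 was higher in 3+6, at 0.36 against 1+4 (SE 0.07, adjusted p = 9.45e-05) and 0.21 against 2+5 (adjusted p = 0.018), with 9.45 ± 1.09, 10.5 ± 0.986 and 12.05 ± 0.958 CPM. The second of these calls did not hold when 4 h replicate 2 (0.15, adjusted p = 0.0634) or 4 h replicate 3 (0.18, adjusted p = 0.0574) was left out. Psmg1 was lower in 2+5 than in 1+4, at -0.20 (adjusted p = 0.0169), a call lost without 4 h replicate 5 (adjusted p = 0.0827). Psmg4 had values within 0.12 of 0 and did not pass.

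The 4 activators split, and the 2 partners of PA28 did not move together. Psme2 (chromosome 14, 55587441 to 55591113, minus strand) had 44.5, 45.9 and 49.8 CPM as its lowest, median and highest library in 1+4, 38.2, 42.1 and 43.8 in 2+5, and 33.4, 35.6 and 37.2 in 3+6. No range overlapped another. Its log2 fold changes were -0.16 (SE 0.04, adjusted p = 0.0014), -0.38 (SE 0.04, adjusted p = 3.01e-09) and -0.22 (SE 0.04, adjusted p = 4.53e-05), the last being 0.04 with library totals, and counts that were not whole in 88.9% of libraries leave it uncertain. Psme1 had 62.4 ± 3.77, 62.3 ± 4.48 and 63.2 ± 5.12 CPM and log2 values of -0.01, 0.02 and 0.03, with 95% intervals that reached from -0.11 to 0.13 at their ends.

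Psme4, which caps the core without unfolding substrates (chromosome 11, 30771726 to 30880361, plus strand), was highest in set 2+5. It had 99.2, 102 and 104 CPM as its lowest, median and highest library in 1+4, 114, 119 and 125 in 2+5, and 87.4, 97.0 and 98.3 in 3+6. These ranges were separate from each other. The log2 fold changes were 0.23 (SE 0.03, adjusted p = 1.43e-06) in 2+5 and -0.10 (SE 0.03, adjusted p = 0.00951) in 3+6, each against 1+4, and -0.33 (SE 0.03, adjusted p = 2.76e-09) in 3+6 against 2+5. The value of -0.10 was 0.06 with library totals and did not pass without 4 h replicate 3 (-0.07, adjusted p = 0.0599).

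Psme3, or PA28 gamma, was higher in 3+6, at 0.20 against 1+4 (SE 0.04, adjusted p = 7.05e-05) and 0.23 against 2+5 (SE 0.04, adjusted p = 2.94e-05), with 69.6 ± 1.95, 69.7 ± 5.86 and 80.0 ± 3.36 CPM. Its 77.0 to 86.5 CPM in 3+6 lay above the 67.7 to 72.6 of 1+4, and 24 h replicate 5, at 80.9, was the one library of 2+5 that overlapped. Psmf1 passed in 2+5 against 1+4, at 0.12 (SE 0.05, adjusted p = 0.0466), a call lost with DESeq2 (adjusted p = 0.0980) and in 7 of 18 fits that left out 1 library. Its levels were 16.6 ± 0.884, 17.98 ± 0.612 and 17.8 ± 0.731 CPM.

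**Figure D5:**
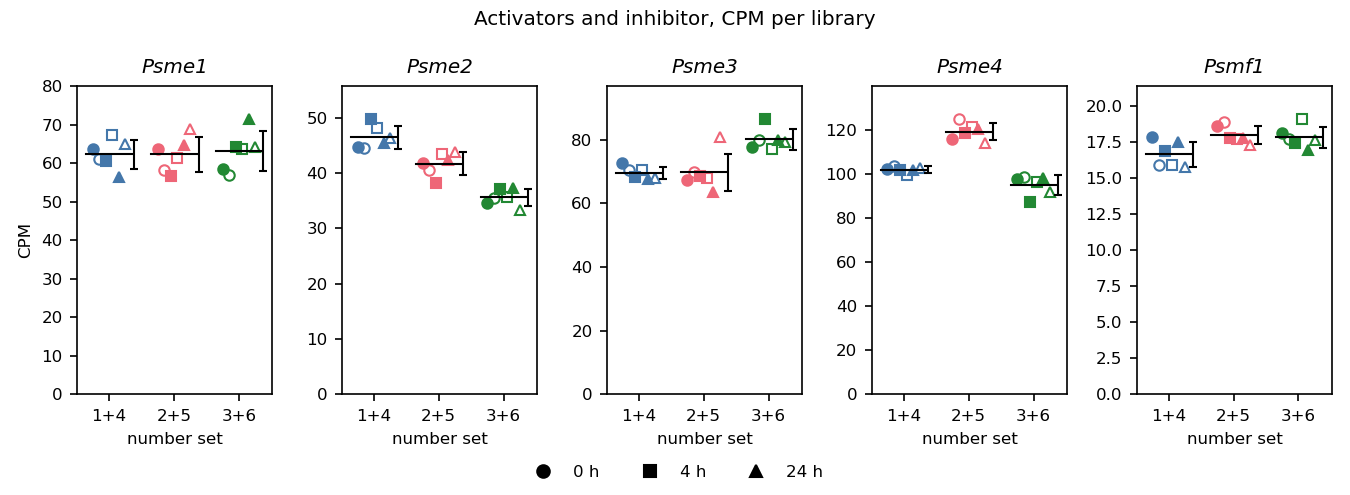
CPM of the 4 activators and the inhibitor Psmf1 in every library by number set, with symbols as in the plot of catalytic subunits and mean and SD of 6 libraries. Psme2 steps down from 46.5 to 35.6 CPM, Psme4 peaks in set 2+5 at 119, Psme3 is highest in 3+6 at 80.0, and Psme1 stays near 62.

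Genes with and without a motif moved in both directions. Between 3+6 and 1+4, of 22 genes with the pattern TGANNNNGC 4 passed as higher and 8 as lower (median -0.06). Of 17 without it 8 and 3 did (median 0.09), where 30.2% of all genes passed as higher and 29.5% as lower. Between 3+6 and 2+5 the counts were 5 higher and 7 lower with it and 4 and 4 without it, with medians of -0.03 in both, where 28.6% of all genes passed as higher and 28.5% as lower. Between 2+5 and 1+4 they were 4 and 7 with it and 5 and 1 without it, with medians of -0.03 and 0.04, where 29.6% and 29.9% of all genes passed. In 3+6 against 1+4, of 14 genes with the ETS site 6 passed as higher and 3 as lower, and of 25 without it 6 and 8, with medians of -0.01 in both. In 2+5 against 1+4 the genes with the ETS letters that rose were Psmd2, Psmd4, Psmd11 and Psme4, and those that fell were Psmc6, Psmd12 and Psmg1. Motif groups share genes and were not tested.

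Other genes of the pathway were also measured. Of 28 measured genes for ubiquitin, its receptors, chaperones and proteasome regulation, 20, 19 and 21 passed in the 3 set comparisons (14, 8 and 6 higher), where 59.5%, 59.7% and 57.1% of all genes passed, and 0 passed between labelled times. Nfe2l1, the transcription factor that raises proteasome genes (chromosome 11, 96817414 to 96829968, minus strand), had 458 to 469.5 CPM in 1+4, 332 to 378 in 2+5 and 292 to 325 in 3+6. Its ranges were separate, and its log2 fold changes were -0.39 (SE 0.04, adjusted p = 4.13e-10), -0.59 (SE 0.04, adjusted p = 5.49e-14) and -0.21 (SE 0.04, adjusted p = 1.99e-05). Between labelled times it had 376 ± 70.0, 376 ± 71.7 and 370 ± 76.0 CPM at 0 h, 4 h and 24 h.

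Adrm1, a ubiquitin receptor of the base, was lower than in 1+4 by -0.21 in 2+5 and -0.15 in 3+6 (adjusted p = 1.41e-05 and 0.000595). Pomp, the chaperone that matures the core, was higher in 2+5 by 0.21 against 1+4 (adjusted p = 1.3e-05), and 3+6 lay below 2+5 by -0.18 (adjusted p = 0.000108). Usp14, a ubiquitin protease of the regulatory particle, was higher by 0.18 in both comparisons with 1+4 (adjusted p = 0.000691 and 0.000435). Among Nfe2l1, Adrm1, Pomp and Usp14, Nfe2l1 was the one that passed as lower in all 3 comparisons.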

How the data were processed

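Total RNA of 18 libraries was sequenced after depletion of ribosomal RNA and strand selection, per the labels' protocols. The authors deposited expected counts per gene, estimated by salmon per the labels; edgeR, limma and mm10 appear in the submitters' processing notes. Which salmon version, annotation and strandedness were used is not given in the sources used here. Over the whole table, 20.0% of values above 0 were not whole (beyond 0.001), and the shares given per gene used a tolerance of 0.05.

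Counts were rounded, filtered with filterByExpr (minimum count 10, total 15; 14788 of 45706 genes), scaled by TMM and compared by the robust quasi-likelihood test of edgeR, two-sided, with Benjamini-Hochberg adjustment over all genes and a threshold of 0.05. Times were fitted alone, and number sets with time in the model. SE stands for standard error, CPM rests on TMM-scaled library sizes, and logs of CPM had a prior count of 2. Expression per kb used the longest principal transcript in GENCODE M21. The number of libraries and counting error limit the precision.

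The members and gene lists were chosen with earlier results of these data known. Genes named were the catalytic subunits, activators and Psmf1, and by part of the particle the called gene with the largest rise and fall and the gene with the smallest difference. Psma2, Psma3, Psma7, Psmb3, Psmb4, Psmc1, Psmc2, Psmc3, Psmd4 and Psmd14, the leukocyte and brown markers and 24 h replicate 5 were singled out after their values were seen.

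The numbers were taken as pairs because deviations from the time means correlated at 0.297 to 0.718 in all 18 same-number pairs (median 0.590). The median was 0.569 for numbers 3 apart and -0.270 otherwise. The 0.590 is close to the 0.569, so it does not show that libraries of 1 number are matched. With set and time in the model, limma-voom estimated a correlation of 0.0376 within a replicate number. The numbers come from the titles, but the titles give no grouping, and the numbers were grouped 3 apart with correlations of these data known. Fits were tested on simulated data. Software was DESeq2 1.42.0, edgeR 4.0.16 and limma 3.58.1 under R 4.3.3, with matplotlib 3.10.9 under Python 3.11.15.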

Additional observations from a re-analysis of the deposited data

Results flagged for a closer look

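Levels of 32 named genes were checked for single libraries set apart from the rest of their labelled time or number set (Dixon's test, 192 groups of 6), and 9 values were set apart, about as many as the 1 in 20 that chance gives. In 24 h replicate 5, the library with the lowest total, 4 of them fell: Psmb8 was the highest of set 2+5 at 16.6 CPM (next 10.9), Psma5 the lowest of the set at 51.7 CPM (next 62.6), Psmd8 the lowest of the set at 59.0 CPM (next 67.4) and Psmd9 the lowest at 24 h at 23.9 CPM (next 30.6). In 24 h replicate 2, Psma1 was the highest of set 2+5 at 61.1 CPM (next 59.6) and Psmd5 the lowest at 24 h at 21.6 CPM (next 27.6). Psmb9 in 4 h replicate 1 was the highest of set 1+4 at 10.2 CPM (next 8.84). Psmd6 in 0 h replicate 2 was the lowest of set 2+5 at 24.9 CPM (next 26.2). Psme3 in 4 h replicate 3 was the highest of set 3+6 at 86.5 CPM (next 80.0).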

How the results depend on the processing

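Alternative runs included DESeq2, limma-voom, other filters and scalings, contrasts within each number set and all 18 fits that left out 1 library. Under each, counts of proteasome genes that passed between labelled times, and for the time-by-set interaction where it was run, were 0. With the replicate block they were 0, and between number sets 18, 27 and 23 genes passed with the block, against 19, 26 and 22 without it; among named genes the block changed the calls of Psmb9 in 2+5 against 1+4 and of Psmd3 in 3+6 against 2+5 (0.08, adjusted p = 0.0383). Leaving out 1 library gave 16 to 21, 23 to 27 and 20 to 24. With library totals in place of scaling 0, 3 and 9 passed. Within a single labelled time, contrasts rested on 2 libraries per set, drawn from 1 fit of all 18 libraries. In 2+5 against 1+4, 10 (0 h), 10 (4 h) and 8 (24 h) genes passed. Of all 14788 genes, 5699, 5473 and 4926 passed there. In 3+6 against 1+4, 14 (0 h), 17 (4 h) and 18 (24 h) passed, where 5631, 5490 and 5741 of all genes did. In 3+6 against 2+5, 15 (0 h), 14 (4 h) and 8 (24 h) passed, where 5137, 5001 and 4757 of all genes did. Some called genes had the reverse sign with library totals, all of them uncalled there. In 3+6 against 1+4 these were Psma6 (0.0509), Psmd3 (0.0776) and Psme4 (0.0619). In 3+6 against 2+5 they were Psma6 (0.166), Psmb5 (0.0101), Psmb7 (0.0742), Psmd11 (0.14), Psmd8 (0.00444) and Psme2 (0.0426). Signs also reversed for Psma6 within 4 h (0.0123) in 3+6 against 2+5 and Psmb9 within 24 h (0.171) in 2+5 against 1+4. The cause was not tested. Of the named results under settings other than leaving out 1 library, 2092 kept their side of the threshold. These include results uncalled in both fits, some of which changed sign, and catalytic ratios under other prior counts, judged by their SD. A further 115 lost the threshold, 8 gained it, and 11 changed sign with a call in either fit. Leaving out 1 library cost 11 named results their call in 1 or more fits and gave 8 others one. A smallest proteasome count of 15 in the shallowest library limits what single genes can show.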
